A study of Rattus norvegicus with 72 samples.

Results

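DNA methylation was compared between rat pups with and without a UBE3A deletion over all 12 libraries of the table that the submitters named maternal background. The name is used here as given. The libraries were chosen by membership of that table and split by the genotype label, which gave 6 deletion and 6 wild-type (WT) libraries. They are 12 of the 72 libraries of the series and 12 of its 24 DNA libraries, each made by whole-genome bisulfite sequencing of the hypothalamus of a pup labelled female. The table lists 18335 genomic regions, and holds for each region and library a smoothed methylation level, a fraction between 0 and 1 of methylated DNA at its CpG sites.

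The 6 deletion libraries comprised 3 labelled maternal at postnatal day 2 (P2), 1 labelled maternal at day 9 (P9) and 2 labelled paternal at P2, where the parental label names the parent that the deletion came from. The 6 WT libraries were litter-matched controls with the same labels, also 3, 1 and 2. Thus 4 libraries of this table carry a paternal label, and 2 libraries labelled maternal at P9 are found in the table named paternal background. Whether the labels or the tables are right for these libraries was not settled. The parental labels are used here as given, and what a difference between deletion and WT means for the maternally derived deletion depends on them. Genotype was balanced within each combination of labels, but not within the library name series described below. In X-linked regions, paternal P2 WT replicate 2 had more low levels than the other 11 libraries, which are also labelled female. Of these regions 14.4% were under 0.1 in it, against at most 1.57% in the others, and its median was 0.468, against 0.581 to 0.634. The X-linked regions were not limited to CpG islands. Whether the label holds for this library was not tested, and sex was not checked by another measure. The table holds no gene expression, so neither the tissue nor the loss of the gene was checked by a marker. The labels give no litter, animal or preparation day for a library, so a p-value here covers the variation among these 12 libraries, some of which may be technical.

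Methylation of the cytosine in a CpG pair is the main covalent mark of mammalian DNA. Most CpGs of the genome are methylated, whereas CpG islands, the CpG-dense stretches at many promoters, usually are not. The Ube3a protein tags other proteins with ubiquitin for degradation. Neurons use chiefly the copy of the gene inherited from the mother, and loss of that copy causes Angelman syndrome in humans. In female mammals 1 X chromosome per cell is silenced, and CpG islands on the silenced copy are methylated, so that such islands show intermediate levels in bulk tissue.

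No region passed the test for a difference between deletion and WT. With limma (genotype plus label combination, Benjamini-Hochberg adjustment over 18335 regions), 0 regions, 0% of those tested, had an adjusted p under 0.05, and the lowest adjusted p was 0.151. At an unadjusted p under 0.05 there were 1721 regions, or 9.39%, of which 776 (4.23%) had the higher level in deletion libraries and 945 (5.15%) the lower. The balance turned round, to 913 higher and 835 lower, when each library was centred on its median. Evenly spread p-values would put 5% there. That excess cannot be read as a count of changed regions, because the table also holds the statistics of a differential-region caller, and the way in which regions were selected is not given in the sources used here.

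Differences were small against the spread between libraries. Over all regions the median of deletion minus WT was -0.00312, with 8666 regions higher and 9669 lower in deletion libraries. The median size of the difference was 0.0303, beside a median standard error of 0.0350. Median SDs between libraries were 0.0568 (deletion) and 0.0587 (WT). The 95% interval of a region's difference extended by a median of 0.0734 to either side, before any adjustment for the number of regions, which limits what 6 libraries a side could detect. A difference of 0.1 or more was seen in 356 regions that were higher and 401 that were lower, and one of 0.2 or more in 21 and 8. Read coverage is not in the table, and the depth behind each level is unknown.

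**Figure D1:**
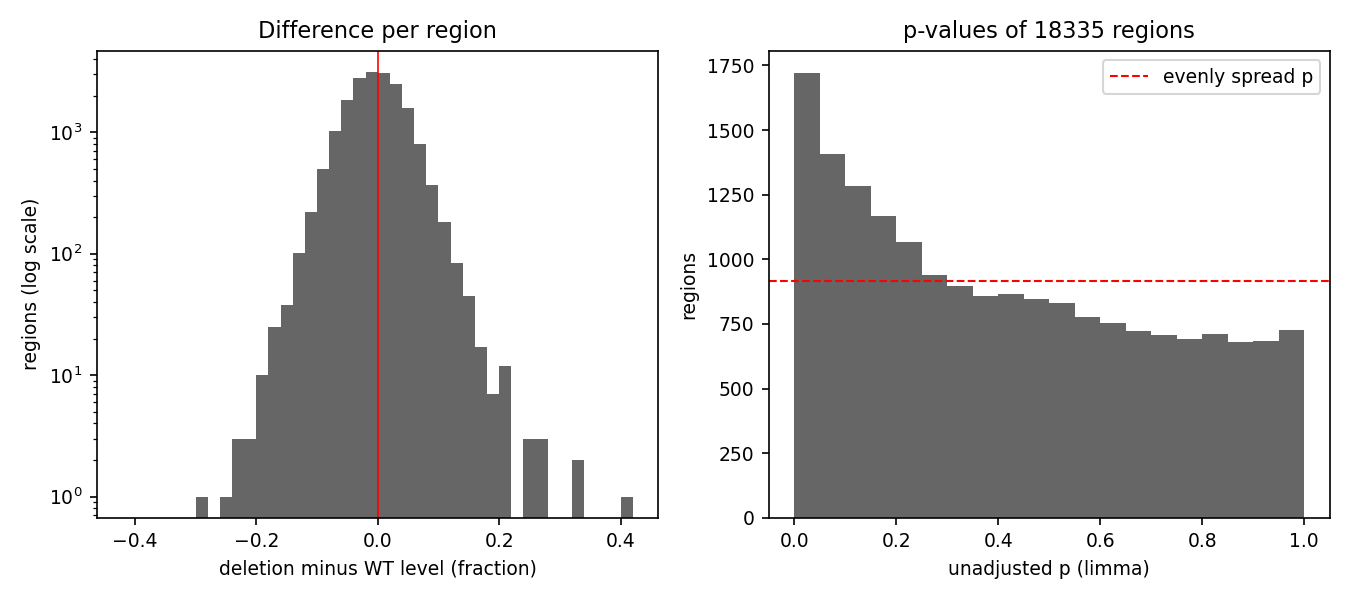
The left panel counts regions (log scale) by deletion minus WT level, as a fraction, and the right panel counts the 18335 regions by unadjusted limma p. The differences centre just below 0 (median -0.00312), and the leftmost p-value bar holds 1721 regions (9.39%), above the dashed line that evenly spread p-values would follow.

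The regions themselves were short. They held a median of 6 CpGs (5 to 360) over a median of 487 bases, and 45.8% held exactly 5 CpGs while 10.2% held 10 or more. Their level averaged over the 12 libraries had a median of 0.761, with quartiles of 0.634 and 0.829. Of the regions, 17946 lay on autosomes, 383 on the X chromosome and 6 on the mitochondrial genome. A region's highest and lowest library differed by a median of 0.204, and in 404 regions (2.20%) by 0.5 or more. The SD among deletion libraries had a median of 0.0568 and that among WT libraries 0.0587, and it was the larger in deletion libraries in 46.7% of regions.

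The average level did not separate the genotypes. Over all regions it was 0.676 to 0.700 (median 0.697) in deletion libraries and 0.685 to 0.711 (median 0.694) in WT libraries. The ranges overlapped, with paternal P2 deletion replicate 1 the lowest and maternal P2 WT replicate 1 the highest of the 12. The means were 0.693 ± 0.00907 in deletion libraries and 0.696 ± 0.00899 in WT libraries (SD, n = 6 each), a difference of -0.00287 (exact two-sided permutation test over 924 divisions, p = 0.597). Without either of those libraries the difference turned to 0.000503 or 0.000164, so it has no stable sign.

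Splitting the autosomal regions by their mean level gave no class in which the genotypes differed. Regions under 0.2 averaged 0.117 ± 0.0348 in deletion libraries and 0.114 ± 0.0434 in WT libraries over 843 regions. The 10505 regions of intermediate level averaged 0.644 ± 0.0106 in deletion libraries and 0.649 ± 0.00930 in WT libraries. The 6598 regions at 0.8 or above averaged 0.851 ± 0.00570 in deletion libraries and 0.852 ± 0.00631 in WT libraries. For these, for all autosomal regions, for X-linked regions and for the 3087 autosomal regions with at least 5 CpGs per 100 bases, exact permutation p ran from 0.446 to 0.933, all 0.933 after Benjamini-Hochberg adjustment over the 6.

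Low p-values were nonetheless unevenly placed along the scale of methylation. Of regions with a mean level under 0.2, 2.81% had an unadjusted p under 0.05, and this share increased through the classes to 11.8% of regions at 0.8 or above. Of the 81 regions whose 6 deletion levels did not overlap the 6 WT levels (0.442% of all regions), 29 were higher (0.158%) and 52 lower (0.284%) in deletion libraries, and none lay under 0.2. Their median differences were 0.0961 in the higher and -0.0896 in the lower, at median levels of 0.792 and 0.801. In the CpG-sparse regions (under 1 CpG per 100 bases) 10.5% had an unadjusted p under 0.05, against 7.49% in those with 5 or more. How the regions behind these shares were selected is not given, and the classes were set with values in view. Only 853 regions lay under 0.2, so few without overlap would be found there at the overall share. In the autosomal ones the 3 libraries of the name series JL3 (described below), 2 deletion and 1 WT, stood at 0.157 to 0.202. The rest stood at 0.0836 to 0.104. What this spread does to p and overlap in that class was not tested.

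Differences of neighbouring regions mostly had the same sign over short distances. Of 249 pairs of adjacent regions at most 1000 bases apart, 85.5% had differences of the same sign, and the 2 differences had a Pearson r of 0.406 across pairs. For gaps up to 100000 bases these were 56.0% and 0.144 over 13176 pairs, and beyond that 49.4% and 0.00245 over 4888 pairs. Adjacent regions share libraries and can share smoothed CpGs, so close pairs are not separate measurements.

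By chromosome, the median difference was negative on 19 of 20 autosomes and positive on chromosome 14. The chromosomes share the small overall difference (-0.00287), whose sign turned without either of 2 single libraries, so the 19 are not separate evidence of a direction. On chromosome 14, 54.8% of 670 regions were higher in deletion libraries. The share on the other autosomes ran from 43.5% (chromosome 15) to 49.4% (chromosome 3). Relative to each library's autosomal mean, the regions of chromosome 14 stood at 0.00732 to 0.0158 in deletion libraries and at 0.000433 to 0.0128 in WT libraries, which overlap. The difference was 0.00591 (exact permutation p = 0.0303), and it was 0.318 after adjustment over 21 chromosomes. Chromosome 19 lay on the other side, with -0.00471 (exact permutation p = 0.0152, also 0.318 adjusted). This comparison was added after values were seen.

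**Figure D2:**
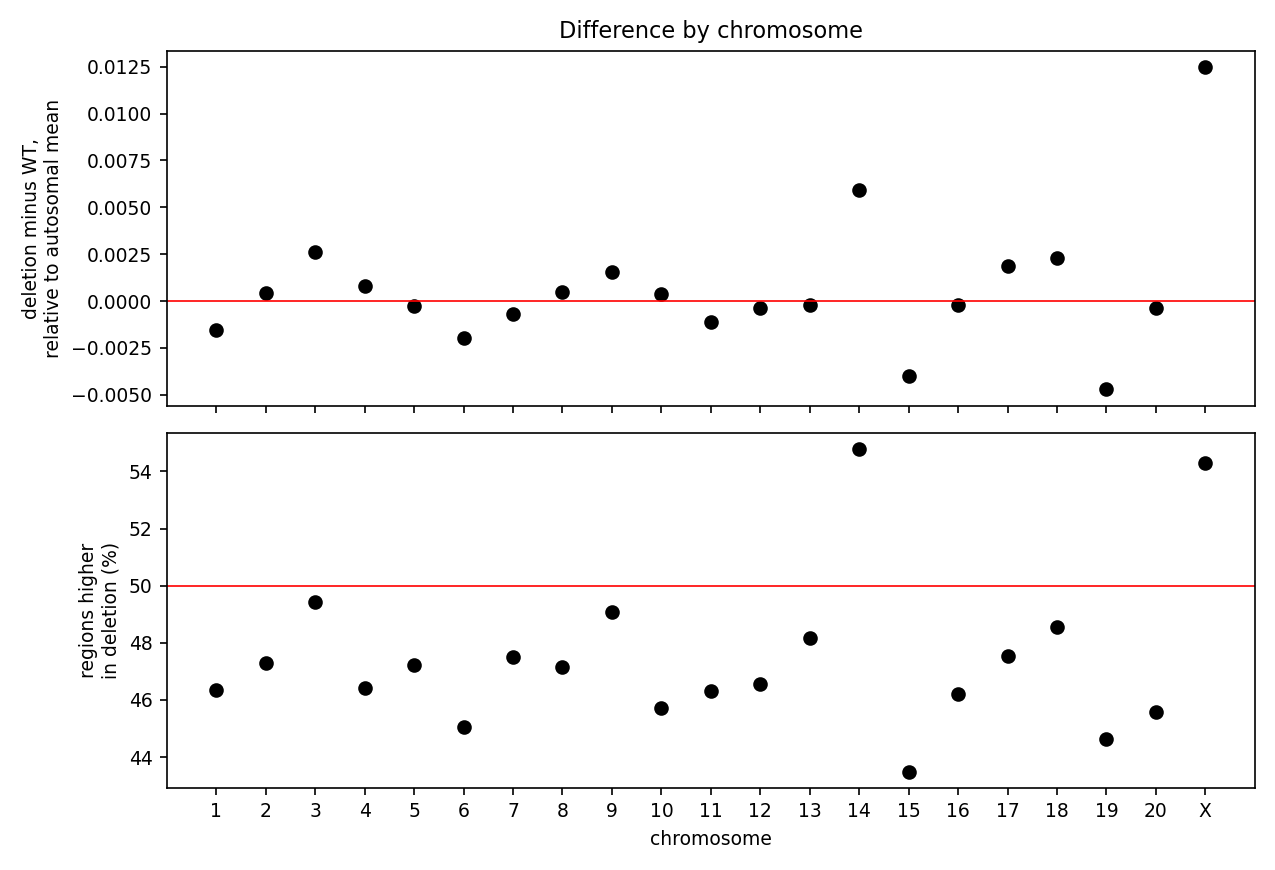
The upper panel gives, per chromosome, deletion minus WT of the mean level relative to the autosomal mean (fraction), and the lower panel the percentage of regions higher in deletion libraries. Chromosomes 14 and X stand above 50% (54.8% and 54.3%), and the other chromosomes lie between 43.5% and 49.4%; the value of X includes paternal P2 WT replicate 2.

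The 10 regions of lowest p in each direction are named here without a claim of change. Their adjusted p ran from 0.151 to 0.375, they held 5 to 13 CpGs, and 11 of the 20 had non-overlapping groups, beside 0.442% of all regions. Selection by p on the same libraries favours such regions, so nothing is read from that count. All positions are on the build rn6, which the submitters' processing notes name. No annotation of this build was used, so regions are given by position and not by gene.

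The region of lowest p was chr12:18674869-18674913, 5 CpGs within 45 bases. Its level ran from 0.905 to 0.992 (median 0.950) in deletion libraries and from 0.731 to 0.890 (median 0.812) in WT libraries. Every deletion library lay above every WT library. The means were 0.949 ± 0.0368 in deletion libraries and 0.820 ± 0.0638 in WT libraries (SD, n = 6 each), a difference of 0.129 ± 0.0211 (SE; limma adjusted p = 0.151).

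Next among the regions with the higher level in deletion libraries was chr1:219361119-219363505, with 12 CpGs. It stood at 0.918 to 0.951 (median 0.933) in deletion libraries and at 0.757 to 0.871 (median 0.857) in WT libraries. The groups did not overlap, and the deletion libraries lay within a span of a few hundredths while 1 WT library trailed the rest (difference 0.0943, limma adjusted p = 0.365). The largest difference of the 20 was at chr5:159205001-159205075, a 75-base region with 5 CpGs. It had 0.703 to 0.964 (median 0.748) in deletion libraries and 0.310 to 0.733 (median 0.549) in WT libraries. Here the groups overlapped, since 3 of the 6 deletion libraries exceeded all WT libraries (difference 0.277, limma adjusted p = 0.375). The differences of the 10 higher regions spanned 0.0943 to 0.277, and 7 of the 10, chosen by p, had non-overlapping groups, beside 0.158% of all regions that were higher without overlap.

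Among regions with the lower level in deletion libraries, chr4:146367230-146367607 (5 CpGs) came first by p. It ran from 0.708 to 0.841 (median 0.791) in deletion libraries and from 0.813 to 0.969 (median 0.937) in WT libraries. In 5 of 6 deletion libraries the level was below every WT level (difference -0.129, limma adjusted p = 0.365).

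The X-linked region chrX:64098991-64100612 (7 CpGs) had 0.628 to 0.759 (median 0.680) in deletion libraries and 0.705 to 0.997 (median 0.867) in WT libraries. Again 5 of 6 deletion libraries were below every WT library (difference -0.175, limma adjusted p = 0.365). The region chr2:208163176-208163363 (5 CpGs) was at 0.532 to 0.649 (median 0.552) in deletion libraries and at 0.702 to 0.837 (median 0.754) in WT libraries. Its groups did not overlap and its difference was -0.176, the largest of the 10 (limma adjusted p = 0.365). These 10 differences spanned -0.176 to -0.0861, and 4 of the 10, also chosen by p, had non-overlapping groups, beside 0.284% of all regions that were lower without overlap.

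**Figure D3:**
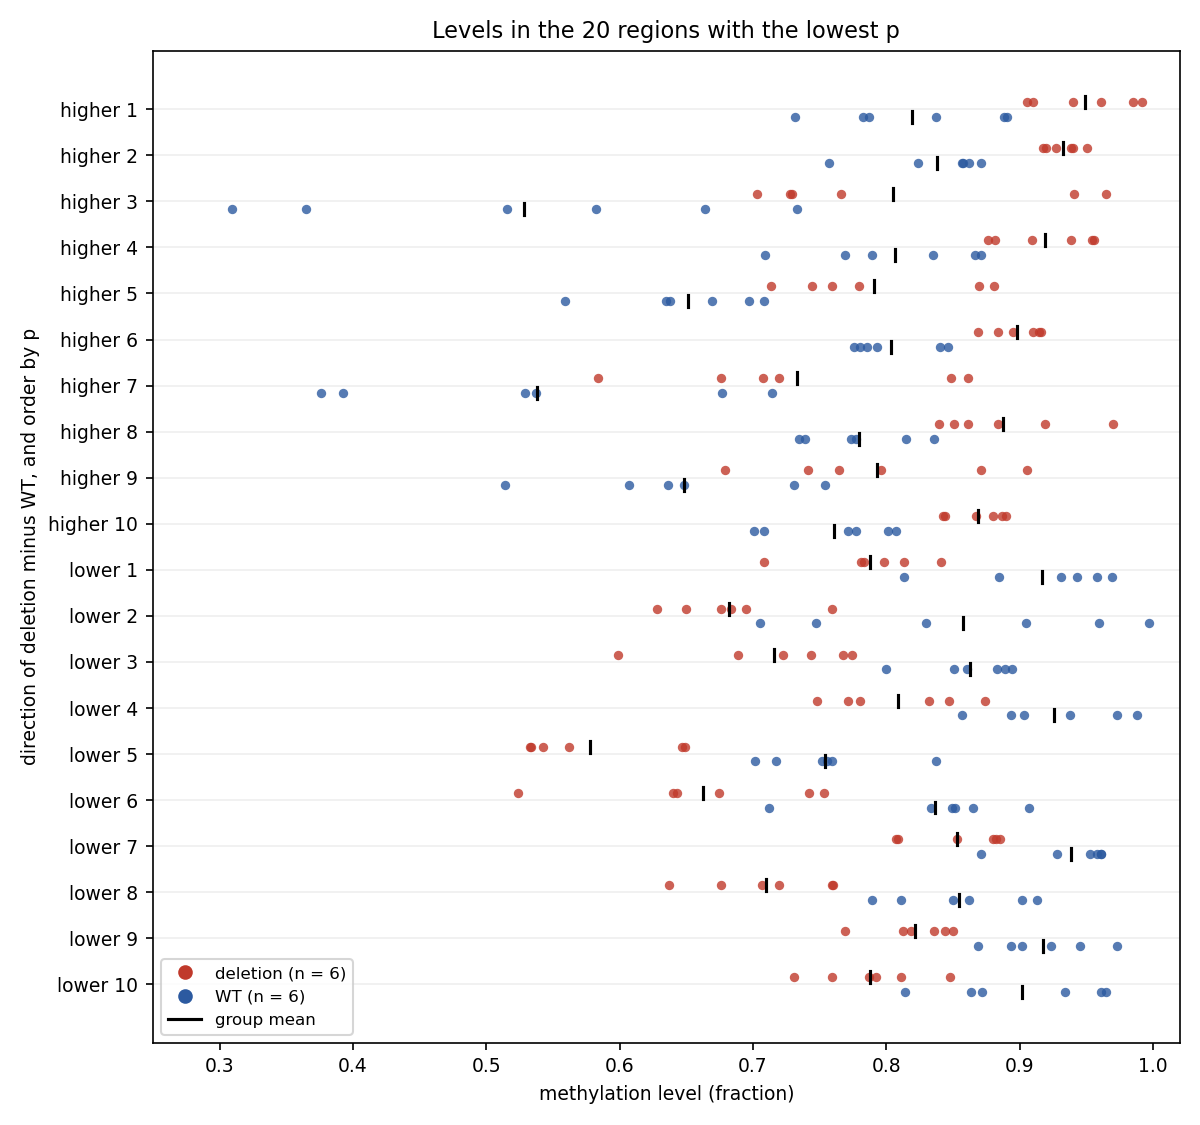
Each point is the methylation level (fraction) of 1 library in 1 of the 20 regions of lowest p, ordered by p within each direction, with 6 deletion libraries above 6 WT libraries in each row and a black bar at each mean. In 11 rows the groups do not overlap, and the widest WT spread is in the third higher region (0.310 to 0.733).

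The regions with the most CpGs were also listed. The table's richest, chr1:11909755-11912357 with 360 CpGs, ran from 0.424 to 0.842 (median 0.636) in deletion libraries and from 0.158 to 0.634 (median 0.329) in WT libraries. The WT libraries fell apart: maternal P2 WT replicates 2 and 3 and paternal P2 WT replicate 2 were at 0.158, 0.187 and 0.168, while the other 3 WT libraries, at 0.471 to 0.634, lay within the range of the deletion libraries. The difference was 0.248 ± 0.0842 (SE; limma adjusted p = 0.414). The next richest, chr1:11904526-11907067 with 288 CpGs, had the same 3 WT libraries lowest (difference 0.204, limma adjusted p = 0.495).

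A region on another chromosome divided the libraries in the same way. At chr14:46565314-46565568 (24 CpGs) the same 3 WT libraries were at 0.0554, 0.134 and 0.116. The other 3 were at 0.558, 0.695 and 0.635, and the deletion libraries ran from 0.531 to 0.882. The difference was 0.329 ± 0.0982 (SE; limma adjusted p = 0.375), the second largest of the table. Around it, 20 regions lie between chr14:46329463 and chr14:46686294, and 5 of them had a difference of 0.2 or more, all higher in deletion libraries. Not all followed the same libraries: at chr14:46329463-46329716 (14 CpGs) maternal P2 WT replicates 1 and 3 were at 0.000427 and 0.0224, and the other 10 libraries at 0.314 to 0.762. None of the 20 had an adjusted p under 0.05, and these regions of chromosome 14 were chosen after their values were seen. The 650 other regions of that chromosome were higher in deletion libraries in 54.8%, as was the chromosome as a whole.

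**Figure D4:**
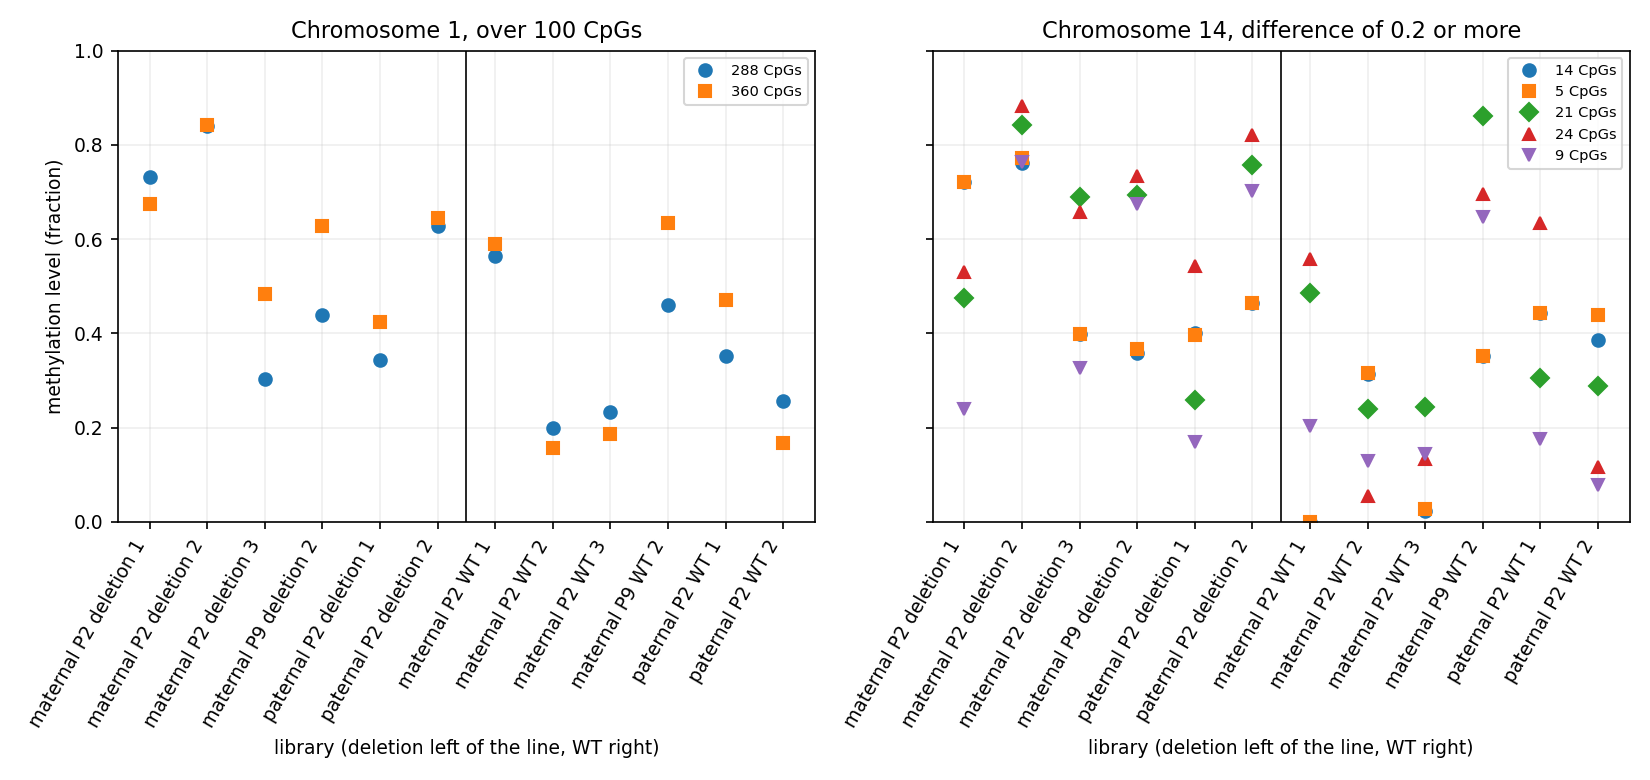
Methylation level (fraction) per library, deletion libraries left of the vertical line and WT libraries right, in the regions of chromosome 1 with 288 and 360 CpGs and in 5 regions of chromosome 14. In the 360-CpG region and in the 24-CpG region, maternal P2 WT replicates 2 and 3 and paternal P2 WT replicate 2 are under 0.2 and the other 9 libraries over 0.4.

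The largest difference in each direction came from a region with split libraries. At chr2:209765069-209765173 (5 CpGs; difference 0.402, limma adjusted p = 0.440) 5 of 6 deletion libraries were at 0.542 to 0.847 and the remaining one at 0.0104. In WT libraries 1 was at 0.900 and 5 were at 0.00842 to 0.190. At chr17:43791681-43791833 (14 CpGs) maternal P2 deletion replicates 1 and 2 were at 0.810 and 0.911, and the other 10 libraries, 4 deletion and 6 WT, at 0.0180 to 0.128. On the side of lower levels, the largest difference was at chr1:36750114-36750336 (22 CpGs; -0.282, limma adjusted p = 0.469). There 2 deletion libraries were at 0.00389 and 0.244 and a further one at 0.613, the other 3 ran from 0.790 to 0.875, and the WT libraries from 0.805 to 0.885. Not all large differences were of this kind. At chr19:56034092-56034757 (5 CpGs), the next largest fall, the level ran from 0.199 to 0.443 in deletion libraries and from 0.378 to 0.698 in WT libraries. The difference was -0.256 (limma adjusted p = 0.375). All regions of this paragraph were chosen after their values were seen.

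X-linked regions averaged 0.575 to 0.617 (median 0.589) in deletion libraries and 0.479 to 0.616 (median 0.602) in WT libraries. The lowest was paternal P2 WT replicate 2, and the other 5 WT libraries lay at 0.590 to 0.616, within the range of the deletion libraries. In that library the 10th percentile of the 383 regions was 0.0791, against 0.307 to 0.350 in the other 11, and 14.4% of the regions were under 0.1, against at most 1.57%. Its 90th percentile, 0.881, was in turn above that of the other 11 (0.824 to 0.859). Thus its X-linked levels were spread towards both ends, while its autosomal mean of 0.690 was the lowest of the WT libraries but within the range of the deletion libraries.

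The sign of the mean X-linked difference depended on that library. Relative to autosomal regions, X-linked ones stood at -0.104 ± 0.0109 in deletion libraries and -0.117 ± 0.0467 in WT libraries (SD, n = 6 each), a difference of 0.0125 (exact permutation p = 0.866). Without it the WT mean was -0.0976 and the difference -0.00644 (exact permutation p = 0.273). With it 208 X-linked regions were higher and 175 lower in deletion libraries, and without it 163 and 220. At an unadjusted p under 0.05 there were 41 X-linked regions (10.7%), beside 9.36% of autosomal regions; this share was not computed without that library.

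The median difference was negative in each of the 3 combinations of labels. It was -0.00152 in libraries labelled maternal P2 (3 against 3), -0.00139 in those labelled maternal P9 (1 against 1) and -0.00597 in those labelled paternal P2 (2 against 2). These medians give no stable direction. With the libraries of the name series JL5 only (described below), the median difference was 0.00225. Over all 12 libraries it was -0.000305 when each was centred on its median. In 2741 regions (14.9%) the deletion mean was higher in all 3 combinations, and in 3271 (17.8%) it was lower in all 3. These shares were not tested. Whether the deletion effect differed between libraries labelled paternal and maternal at P2 was tested as an interaction in limma. It gave 0 regions at an adjusted p under 0.05 (0%), 683 (3.73%) at an unadjusted p under 0.05, and a lowest adjusted p of 0.999. Parental label and library name series, described next, cannot be told apart in this contrast, since the 4 libraries labelled paternal are the whole of the series JL4 and those labelled maternal are of JL3 and JL5.

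The first digit of the library names divides the libraries into 3 series, and this is the only trace of a batch in the labels. The series JL3 holds 2 deletion libraries and 1 WT library, JL4 holds 2 and 2, and JL5 holds 2 and 3. Within maternal P2, JL3 holds 2 deletion libraries and 1 WT library, and JL5 holds 1 and 2. High JL3 levels can thus raise the deletion mean of that label combination. Autosomal regions under 0.2 differed by 0.0117 (deletion minus WT) in maternal P2 but by -0.0405 within JL3. The 6 mitochondrial regions averaged 0.355 to 0.660 in JL3, 0.0714 to 0.145 in JL4 and 0.0114 to 0.0249 in JL5, with no overlap between series. By genotype they averaged 0.185 ± 0.176 in deletion libraries and 0.150 ± 0.252 in WT libraries (SD, n = 6 each). Within series, deletion minus WT was -0.264 in JL3, 0.0562 in JL4 and -0.00668 in JL5, so the pooled means give no direction. Autosomal regions under 0.2 followed in part, with 0.157 to 0.202 in JL3 and 0.0836 to 0.104 in the other 9 libraries.

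Unlike the test by genotype, the test by name series called regions. An F-test for the series, with genotype in the limma fit, called 173 regions at an adjusted p under 0.05 (0.944% of those tested), among them all 6 mitochondrial regions. In 167 of the 173 the JL3 mean was above that of the other libraries. Their median level was 0.461 in JL3, 0.111 in JL4 and 0.0796 in JL5, and their median density 5.75 CpGs per 100 bases, against 1.29 in the other regions. By deletion, 3 of the 173 had an unadjusted p under 0.05, beside 9.39% of all regions. In 114 of the 173 the level was higher in deletion libraries, beside 47.3% of all regions. The deletion fit has no term for the series, but its label term takes up JL4, which alone is labelled paternal. JL3 and JL5 are mixed within maternal P2, where large differences between them add to the spread and can shift the difference. Nothing is read from either count. The F-test has no label term, so in it JL4 cannot be told apart from the paternal label. An example, chosen as the nuclear region most correlated with the mitochondrial mean among those with a range of 0.5 or more (Pearson r = 0.980 over 12 libraries), is chr4:118328015-118328516 with 25 CpGs. It was at 0.333, 0.296 and 0.658 in the 3 JL3 libraries and at 0.0909 or less in the other 9, and averaged 0.131 in deletion libraries and 0.127 in WT libraries.

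Within series the mean level over all regions differed between deletion and WT by -0.0117 in JL3, -0.00650 in JL4 and 0.00165 in JL5. With the series in place of the labels in the fit, 0 regions were called and 1741 had an unadjusted p under 0.05. Across autosomal regions, which share the reference and any CpG context, library pairs of the same genotype correlated with a median Pearson r of 0.888 (30 pairs) and pairs of different genotype with 0.879 (36 pairs). The ranges nearly coincided, at 0.827 to 0.914 and 0.827 to 0.912, and the pairs reuse the same libraries. Within series the median r was 0.848 in JL3 (3 pairs), 0.902 in JL4 (6 pairs) and 0.886 in JL5 (10 pairs). The library least like the others was maternal P2 WT replicate 1, of JL3, with a mean r of 0.842. Without it 0 regions were called and 1690 had an unadjusted p under 0.05.

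**Figure D5:**
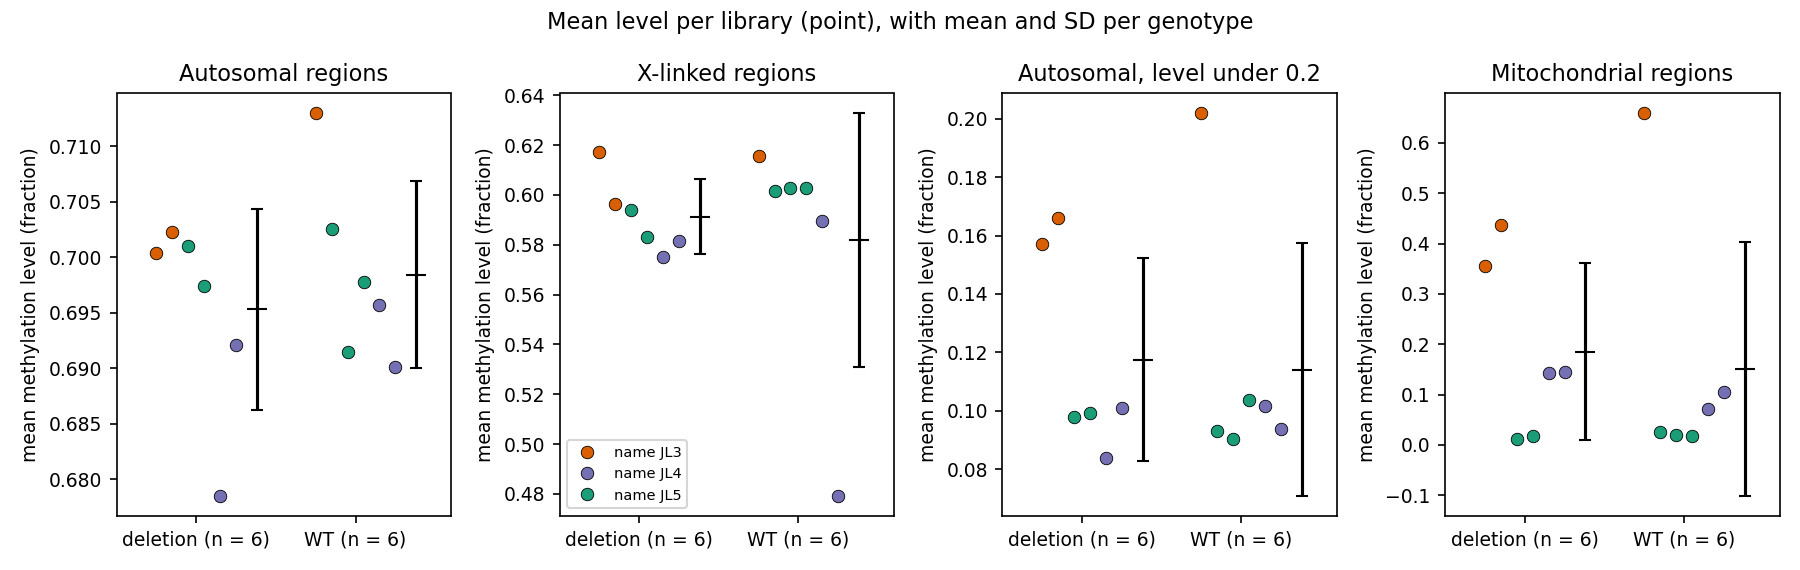
Each point is the mean methylation level (fraction) of 1 library over a class of regions, coloured by library name series, with deletion libraries left of WT libraries and the mean ± SD of each genotype (n = 6) beside them; each panel has its own axis. JL3 libraries are highest in mitochondrial regions (0.355 to 0.660) and in autosomal regions under 0.2, and 1 WT library is at 0.479 in X-linked regions.

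The table named paternal background holds 12 other libraries, 6 deletion and 6 WT, and shares 0 with this one. Of its 13874 regions with levels, limma called 1 region (0.00721%), chr9:114732649-114733299, and 1111 (8.01%) had an unadjusted p under 0.05. By at least 1 shared base, 1866 regions of the maternal table (10.2%) overlapped 1874 of the paternal one (13.5%), in 1883 pairs. Differences had the same sign in 935 pairs (49.7%). Both members of a pair had an unadjusted p under 0.05 in 22 pairs, of which 10 had the same sign.

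Of the 20 regions of lowest p, 3 had a counterpart there. The region at chr5:159205001-159205075 differed by 0.277 in the maternal table and by 0.0112 in the paternal one. That at chrX:64098991-64100612 differed by -0.175 and by 0.0830, with the opposite sign. That at chr6:129935643-129935955 (6 CpGs) differed by -0.147 and by -0.0199. None of the 3 had an adjusted p under 0.05 in the limma fit of either table. Regions that overlap need not cover the same CpGs, and how the regions of each table were smoothed and selected is not given.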

How the data were processed

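Per the labels' protocols, the DNA libraries came from Illumina's TruSeq methylation kit. The submitters' processing notes name the builds rn6 and Rnor_6.0. For the bisulfite reads, which aligner, smoother and region caller were run is not given in the sources used here. Deposited tables hold a smoothed methylation level, a fraction, per region and library, with CpG number, width and coordinates, per the file headers, and no coverage. The authors' region statistics were not used. Unmapped per-sample columns numbered 0.

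Levels were fitted as deposited in limma 3.58.1 (R 4.3.3; eBayes with a variance trend; genotype plus label combination, 8 residual degrees of freedom), and p-values adjusted by Benjamini-Hochberg over all regions of a table. The fit was tested on simulated data. Library means were compared by exact two-sided permutation tests in SciPy 1.17.1, and overlaps made with bedtools 2.31.1. A region of the paternal table without levels was left out. Replicate numbers follow record order and pair nothing. Named regions are the 10 of lowest p in each direction and the 3 with most CpGs in each, the rule for the case that none is called. No 2 libraries held the same levels (smallest median absolute difference 0.0514). Members, classes and lists were chosen with earlier results of these data known. Alternatives covered scale, variance trend, CpG minimum, centring, covariates and libraries. Gene lists could not be applied without an annotation of the build.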

Additional observations from a re-analysis of the deposited data

Results flagged for a closer look

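Of 68 groups of 6 libraries examined, 12 held a library whose gap to the nearest other was large for the group's range. Chance gives about 1 in 20 for separate groups. These groups reuse the same libraries on related measures and on regions chosen by p, so 12 of 68 is not read as an excess. Paternal P2 WT replicate 2 stood apart among WT libraries in X-linked regions (0.479) and in X-linked minus autosomal level (-0.211). Maternal P2 deletion replicate 1 stood apart among deletion libraries in X-linked minus autosomal level (-0.0831).

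Maternal P2 WT replicate 1 stood above the other WT libraries in mitochondrial regions (0.660), in autosomal regions under 0.2 (0.202) and in regions of 5 or more CpGs per 100 bases (0.618). It was also the highest WT library in CpG-rich regions on chromosome 1 (chr1:221801852-221802406, 70 CpGs, 0.263), chromosome 14 (chr14:55078541-55081951, 56 CpGs, 0.543) and chromosome 8 (chr8:62984434-62986786, 49 CpGs, 0.780). In none of these 3 regions did deletion and WT differ at an adjusted p under 0.05 (limma). Maternal P2 WT replicate 1 is the only WT library of the series JL3. The 2 JL3 deletion libraries were likewise above every JL4 and JL5 library in these classes and regions. The 3 regions were called by name series (limma F-test, adjusted p = 0.0145, 0.0496 and 0.000354). Library and series were not told apart here.

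Paternal P2 deletion replicate 1 was low among deletion libraries in autosomal regions of intermediate level (0.623). Maternal P9 WT replicate 2 was low among WT libraries in chr3:162734675-162735451 (0.712) and in chr16:20356964-20359558 (0.871), both among the 10 lower regions of lowest p. The part of single libraries in the differences by genotype is given by the values without them.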

How the results depend on the processing

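The count of 0 regions changed by deletion held in every alternative fit but one. With the JL5 libraries only, a setting added after the data were seen, 1 region was called, chr11:25455571-25455676 (higher, limma adjusted p = 0.0333, against 0.547 with all libraries). Leaving out single libraries gave 0 to 0 calls, with a lowest limma adjusted p of 0.0612 to 0.418. Of the regions, 8.54% to 9.53% then had an unadjusted p under 0.05. Libraries labelled paternal P2 alone gave 6.16%, and the regions of 10 or more CpGs 13.8%. In the libraries labelled paternal P2 alone the lowest limma adjusted p was 0.0518, close to the threshold. Centring each library on its median turned the split of regions at an unadjusted p under 0.05 to 913 higher and 835 lower, against 776 and 945. The interaction gave 0 to 1 calls, with 1 without maternal P2 deletion replicate 3 (chr17:43791681-43791833, limma adjusted p = 0.00675). The mean difference over all regions ran from -0.00493 to 0.000503 over left-out libraries, and reversed to 0.000503 without paternal P2 deletion replicate 1 and to 0.000164 without maternal P2 WT replicate 1. X-linked minus autosomal ran from -0.00644 to 0.0180, and reversed to -0.00708 in libraries labelled maternal and to -0.00644 without paternal P2 WT replicate 2. Overlap of 50% of both regions left 486 pairs. All 522 alternative fits of the 20 regions of lowest p kept direction and side of the threshold; these regions were chosen by p on the same libraries. No paired analysis was possible because the replicate numbers pair no libraries. Read depth and the way in which regions were selected are unknown, which limits all values. Apart from the left-out libraries, the cause of each change was not tested.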
